A study of Aspergillus nidulans with 9 samples.

Results

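The genes described here lie in 3 stretches of the *Aspergillus nidulans* genome, named by the first and last identifier numbers of each: AN3515 to AN3530, AN2817 to AN2829 and AN8132 to AN8137. The ranges were selected on the log2 fold changes of the libraries labelled Δ*veA* against WT, in which neighbouring genes changed the same way, so that comparison is given as a description without a test. The members are the rows of the count table whose identifier number falls in those ranges. They are 30 of 10988 rows, with 13 in the first stretch, 11 in the second and 6 in the third. Of the 35 numbers in the ranges, 5 have no row of that number in the count table, 3 in the first stretch and 2 in the second. Enough reads for a test were counted on 26 of the 30 members, of 9481 genes tested in all.

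RNA was sequenced from vegetatively grown cells (Vege) of 3 strains, with 3 libraries for each. The strains were a *veA* deletion with the marker *argB* at the deleted locus (Δ*veA*::*argB*), a *laeA* deletion made with the marker *methG* in a *methG1* background with *veA* (Δ*laeA*), and a wild type (WT). The filamentous fungus had grown in liquid glucose minimal medium in the dark for 24 h at 37 °C. Each genotype was 1 strain, and nothing read here says whether its 3 libraries came from separate cultures, so every adjusted p below measures only the spread between these libraries.

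VeA belongs to the velvet family of fungal regulators. In the dark it enters the nucleus and can form a complex with VelB and LaeA, a protein with a methyltransferase-like domain, and this complex is known for its part in sexual development and in the making of secondary metabolites. Genes for a secondary metabolite often stand next to each other on a fungal chromosome and are often expressed together, which is why neighbours are read side by side here. The annotation used gave a symbol to 0 of the 30 members, so they are described by identifier and level, and no function is assigned to any of them.

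Reads counted on genes ranged from 20264156 to 35482680 in the Δ*veA*-labelled libraries, from 17651082 to 22937065 in Δ*laeA* and from 13396869 to 35755046 in WT. Levels are CPM, the counts of a gene scaled to a common library total by TMM, a method that allows for differences in composition between libraries. The counts of *veA* (AN1052) went against the label, at 815, 785 and 773 CPM in the Δ*veA*-labelled libraries, against 116, 108 and 108 CPM in WT. A count per gene does not show which bases the reads covered. The marker *argB* (AN4409) followed the label, at 454, 465 and 442 CPM in the Δ*veA*-labelled libraries, against 82.0, 79.6 and 80.0 CPM in WT. The targeted gene *laeA* (AN0807) had 4.96, 6.61 and 5.60 CPM in Δ*laeA*, against 37.9, 35.2 and 34.2 CPM in WT. Genes of conidiation, the making of asexual spores, checked the cell type: their 8 levels summed to 23.5 to 26.1 CPM in the Δ*veA*-labelled libraries, 37.6 to 41.0 CPM in Δ*laeA* and 77.5 to 79.8 CPM in WT. Of these 8, 6 were called lower in the Δ*veA*-labelled libraries, against 19.9% of all genes tested, and 4 in Δ*laeA*, against 14.5%. Of the 8, 0 were at 0 in all libraries of a group. The sum of 3 genes that all hyphae express (*gpdA*, *actA* and *benA*) was 10157 to 11079 CPM in the Δ*veA*-labelled libraries, 11425 to 12153 CPM in Δ*laeA* and 4835 to 4978 CPM in WT. Most of each sum was *gpdA*, which was called higher in both mutants, with log2 fold changes of 1.29 in the Δ*veA*-labelled libraries and 1.56 in Δ*laeA*. For *actA* these were 0.50 and 0.46, and for *benA* 0.88 and 0.54, and neither gene was called. The part of these differences in the results below was not tested, and in bulk RNA fewer cells of a type cannot be told apart from less RNA per cell.

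A gene was called a differentially expressed gene (DEG) when its change was more than 2-fold with an adjusted p under 0.05 in edgeR's quasi-likelihood test. In the Δ*veA*-labelled libraries against WT, all 12 tested members of the first stretch and all 8 of the second were DEGs with lower levels, a call made for 19.9% of all genes tested. All 6 members of the third stretch were DEGs with higher levels, against 13.6% of all genes tested. These counts are what chose the stretches. In Δ*laeA* against WT, which was tested, 7 of the 26 members fell, against 14.5% of all genes tested, 3 rose, against 9.9%, and 16 were not DEGs. Among the 7, AN8136 passed the filter only through the Δ*veA*-labelled libraries. It was not tested when the fit held only Δ*laeA* and WT. The Δ*laeA* comparison used the same WT libraries as the one that chose the members.

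In the first stretch the tested genes from AN3517 to AN3530 were lower in the Δ*veA*-labelled libraries than in WT, several of them with hardly a read left, while in Δ*laeA* 10 of the 12 tested members were not DEGs. The median log2 fold change over the 12 tested members was -4.40 in the Δ*veA*-labelled libraries, or -3.84 with the gene that had no read there at its bound, and 0.14 in Δ*laeA*. Over all genes tested the medians were 0.00 in both comparisons. Summed over the stretch, the members reached 28.1 ± 0.756 CPM in the Δ*veA*-labelled libraries, 882 ± 12.4 CPM in Δ*laeA* and 362 ± 6.42 CPM in WT (SD, n = 3 each).

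At 4 neighbours, AN3517 to AN3520, hardly a read was left in the Δ*veA*-labelled libraries. AN3517 had 2, 1 and 0 reads in the Δ*veA*-labelled libraries, against 130, 331 and 202 reads in WT, and it had 172, 227 and 201 reads in Δ*laeA*. The pooled ratio of the Δ*veA*-labelled libraries over WT was 0.0049, with an exact 95% counting interval of 0.00101 to 0.0144. The interval covers counting error only, and its width reflects the few reads left. AN3518 had 0.265, 0.454 and 0.257 CPM in the Δ*veA*-labelled libraries, 48.4, 49.9 and 56.3 CPM in Δ*laeA*, and 42.1, 47.5 and 42.1 CPM in WT. AN3519 had 0.295, 0.454 and 0.257 CPM in the Δ*veA*-labelled libraries, 67.9, 65.7 and 61.1 CPM in Δ*laeA*, and 45.1, 48.0 and 47.6 CPM in WT. Both genes had the Δ*veA*-labelled libraries far below the other 6, and the 3 groups did not overlap for either gene. AN3520 had 0, 7 and 3 reads in the Δ*veA*-labelled libraries, a mean of 0.169 CPM, with 105 ± 8.33 CPM in Δ*laeA* and 57.9 ± 2.00 CPM in WT (SD, n = 3 each). Its log2 fold change in the Δ*veA*-labelled libraries was -8.67 ± 0.19 (SE). With so few reads this value rests on single libraries, at -7.82 without Δ*veA*-labelled replicate 1 and -9.88 without Δ*veA*-labelled replicate 2.

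**Figure D1:**
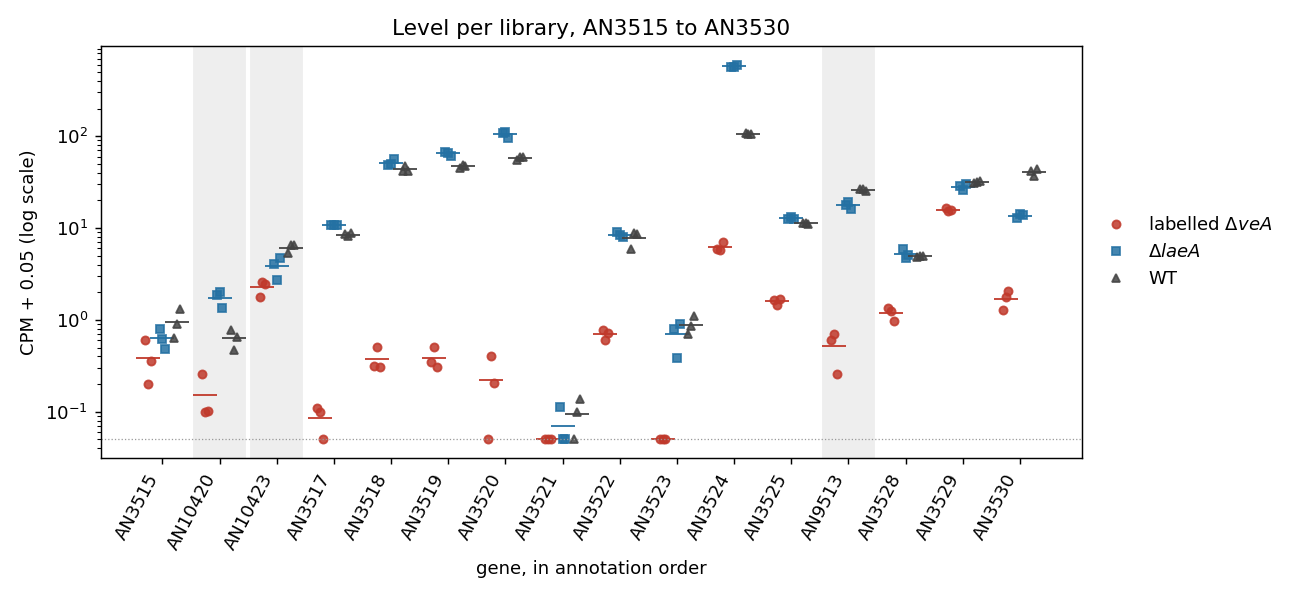
Level of each gene from AN3515 to AN3530 in every library, as CPM plus 0.05 on a log axis, with genes in annotation order, a short line at each group's mean, a dotted line at 0 CPM and grey bands for genes whose number lies outside the range. Circles (Δ*veA*-labelled libraries) lie below squares (Δ*laeA*) and triangles (WT) at every gene from AN3517 on except AN3521, and AN3524 is the gene at which Δ*laeA* stands furthest above WT, at 580 against 107 CPM.

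Beyond these 4, the members of the first stretch differed in how far below WT they lay. AN3521 was not tested, with 0, 0 and 0 reads in the Δ*veA*-labelled libraries, 1, 0 and 0 in Δ*laeA* and 0, 2 and 2 in WT. AN3522 had 0.736, 0.555 and 0.668 CPM in the Δ*veA*-labelled libraries, 8.93, 8.28 and 7.91 CPM in Δ*laeA*, and 5.80, 8.77 and 8.50 CPM in WT. AN3521 was thus silent or nearly so in every strain, so it interrupts the run as a gene without data rather than as a gene with the opposite change. AN3523 had 0 reads in all 3 Δ*veA*-labelled libraries, 12, 7 and 16 reads in Δ*laeA*, and 10, 33 and 24 reads in WT. With the floor set at 3 reads per library, AN3523 was at least 6.34-fold lower in the Δ*veA*-labelled libraries than in WT. AN3524 had 5.86, 5.71 and 6.93 CPM in the Δ*veA*-labelled libraries, 568, 572 and 602 CPM in Δ*laeA*, and 108, 106 and 107 CPM in WT. This gene alone took 65.0 to 67.1% of the reads of the stretch in Δ*laeA* and 29.0 to 30.5% in WT. Without it the sum over the stretch was 21.9 ± 0.377 CPM in the Δ*veA*-labelled libraries, 302 ± 6.24 CPM in Δ*laeA* and 255 ± 7.32 CPM in WT (SD, n = 3 each).

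At the far end of the stretch the distance from WT varied from gene to gene. AN3525 had 1.59, 1.41 and 1.64 CPM in the Δ*veA*-labelled libraries, 12.6, 13.1 and 12.4 CPM in Δ*laeA*, and 11.3, 11.3 and 11.0 CPM in WT. AN3528 had 1.30, 1.21 and 0.925 CPM in the Δ*veA*-labelled libraries, 5.89, 4.66 and 5.06 CPM in Δ*laeA*, and 4.83, 4.88 and 4.86 CPM in WT. In both genes the Δ*veA*-labelled libraries were below all others, and for AN3528 the Δ*laeA* and WT libraries overlapped. AN3529 stood at 16.3, 15.2 and 15.7 CPM in the Δ*veA*-labelled libraries, 28.6, 25.8 and 29.9 CPM in Δ*laeA*, and 31.0, 31.6 and 32.7 CPM in WT. Its log2 fold change in the Δ*veA*-labelled libraries was -1.01 ± 0.08 (SE), just past the 2-fold threshold. It was -0.99 without WT replicate 3 and -0.98 without Δ*veA*-labelled replicate 2, and was then no longer a DEG. AN3530, the last member, had 1.24, 1.72 and 2.00 CPM in the Δ*veA*-labelled libraries, 12.9, 14.2 and 13.7 CPM in Δ*laeA*, and 41.4, 36.8 and 43.6 CPM in WT, so its levels stepped from group to group without overlap.

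Set against WT, 16.7% of the 12 tested members of the first stretch were DEGs in Δ*laeA*, below the 24.4% of all genes tested. AN3524 rose, with a log2 fold change of 2.44 ± 0.05 (SE, adjusted p = 4.58e-29, edgeR), and AN3530 fell, with -1.57 ± 0.10 (SE, adjusted p = 8.15e-16, edgeR). The other 10 tested members were not DEGs. Of these, AN3520 came closest to the 2-fold threshold, at 0.86 ± 0.08 on the log2 scale (SE, adjusted p = 2.54e-11, edgeR), and AN3519 stood at 0.46 ± 0.07 (SE, adjusted p = 2.48e-07, edgeR). Without the fold threshold 7 members passed on adjusted p alone, 5 higher and 2 lower, where 73.4% of all genes tested did so in either direction. The small differences turn on the scaling: with library totals in place of TMM the median of all genes moves to -0.33 in Δ*laeA* and to -0.26 in the Δ*veA*-labelled libraries, and AN3518 then reads -0.10 instead of 0.23 on the log2 scale in Δ*laeA*.

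Directly between the mutants, 10 of the 12 tested members were lower in the Δ*veA*-labelled libraries than in Δ*laeA* by the DEG thresholds, a call made for 11.6% of all genes tested. This comparison shares the Δ*veA*-labelled libraries with the choice of the members and is given without a test. The log2 difference of the Δ*veA*-labelled libraries from Δ*laeA* was -6.57 ± 0.07 for AN3524 (SE). For AN3520, with its 0, 7 and 3 reads in the Δ*veA*-labelled libraries, it was -9.53 ± 0.18 (SE). This SE again understates the counting error, and the pooled ratio had an exact 95% counting interval of 0.00062 to 0.00238. With 1 library left out the log2 difference ranged from -10.74 to -8.69. These ends were without Δ*veA*-labelled replicate 2 and without Δ*veA*-labelled replicate 1. The 2 members outside this count were AN3515 and AN3529, the first at 0.560, 0.151 and 0.308 CPM in the Δ*veA*-labelled libraries and 0.744, 0.571 and 0.431 CPM in Δ*laeA*, where the groups overlapped, and the second at -0.83 ± 0.08 (log2 difference ± SE).

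The low edge of the first stretch was poorly defined. AN3515 itself had 0.587, 0.855 and 1.26 CPM in WT, with the largest value in the Δ*veA*-labelled libraries just under the smallest in WT. Its log2 fold change in the Δ*veA*-labelled libraries was -1.29 ± 0.45 (SE), and it was no longer a DEG without WT replicate 3 (-1.02) or without Δ*veA*-labelled replicate 2 (-0.99), and stood at -1.99 without Δ*veA*-labelled replicate 1. The annotation places 2 genes with numbers outside the range, AN10420 and AN10423, between AN3515 and AN3517. AN10420 had 0.206, 0.0505 and 0.0514 CPM in the Δ*veA*-labelled libraries, 1.80, 1.95 and 1.29 CPM in Δ*laeA*, and 0.717, 0.415 and 0.607 CPM in WT. It rose in Δ*laeA*, with a log2 fold change of 1.62 ± 0.39 (SE, adjusted p = 4.16e-04, edgeR). AN10423 had 1.74, 2.52 and 2.41 CPM in the Δ*veA*-labelled libraries, 4.03, 2.66 and 4.68 CPM in Δ*laeA*, and 5.28, 6.50 and 6.42 CPM in WT. AN9513, placed between AN3525 and AN3528, had 0.560, 0.656 and 0.205 CPM in the Δ*veA*-labelled libraries, 17.9, 19.2 and 16 CPM in Δ*laeA*, and 26.8, 26.6 and 25.2 CPM in WT. All 3 of these genes were DEGs with lower levels in the Δ*veA*-labelled libraries, a call made for 19.9% of all genes tested. Every tested row between AN3515 and AN3530, 15 of 15, thus carried the same call, but 12 of the 15 are members of a stretch chosen on it.

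Just outside the low end, AN3514 had too few reads to test, 5, 3 and 2 in the Δ*veA*-labelled libraries, 1, 1 and 0 in Δ*laeA* and 0, 0 and 0 in WT. The nearest tested gene there, AN3513, had 4.57, 3.03 and 4.57 CPM in the Δ*veA*-labelled libraries, 3.16, 2.66 and 4.68 CPM in Δ*laeA*, and 3.06, 3.25 and 4.95 CPM in WT, with all groups overlapping. At the high end the direction turned at the next gene. AN3531 had 2.50, 2.63 and 1.44 CPM in the Δ*veA*-labelled libraries, 1.18, 1.95 and 1.61 CPM in Δ*laeA*, and 0.717, 0.879 and 1.26 CPM in WT. Its log2 fold change was 1.20 ± 0.31 (SE) in the Δ*veA*-labelled libraries, the opposite direction to AN3530 next to it. Among the 10 numbered rows on each side and the genes placed among them, AN10422 was the only tested gene on the low side that was a DEG with a lower level in the Δ*veA*-labelled libraries, at -1.77 on the log2 scale.

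The second stretch, AN2817 to AN2829, was low in both mutants. The median log2 fold change over its 8 tested members was -2.94 in the Δ*veA*-labelled libraries and -2.45 in Δ*laeA*. Summed, the members had 21.0 ± 1.10 CPM in the Δ*veA*-labelled libraries, 39.2 ± 1.80 CPM in Δ*laeA* and 166 ± 2.00 CPM in WT (SD, n = 3 each). In Δ*laeA*, 5 of the 8 were DEGs that fell, against 14.5% of all genes tested, 3 were not DEGs and 0 rose, against 9.9%.

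At AN2822, AN2828 and AN2829 the levels of the mutants overlapped. AN2822 had 7.36, 8.99 and 9.61 CPM in the Δ*veA*-labelled libraries, 7.93, 6.47 and 7.70 CPM in Δ*laeA*, and 60.0, 61.5 and 64.0 CPM in WT. AN2828 had 1.53, 1.16 and 0.719 CPM in the Δ*veA*-labelled libraries, 1.98, 1.76 and 1.13 CPM in Δ*laeA*, and 21.2, 19.8 and 20.7 CPM in WT. AN2829 had 4.39, 4.49 and 4.11 CPM in the Δ*veA*-labelled libraries, 3.53, 3.19 and 4.41 CPM in Δ*laeA*, and 37.2, 33.9 and 35.3 CPM in WT. In each of the 3 genes all WT libraries lay far above all mutant libraries. In Δ*laeA* the log2 fold changes were -3.08 ± 0.10 for AN2822 (adjusted p = 7.82e-24), -3.66 ± 0.17 for AN2828 (adjusted p = 5.79e-19) and -3.26 ± 0.12 for AN2829 (adjusted p = 3.08e-22, SE and edgeR for all 3). The log2 difference of the Δ*veA*-labelled libraries from Δ*laeA* was 0.22 ± 0.12 for AN2822 and 0.23 ± 0.15 for AN2829 (SE).

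**Figure D2:**
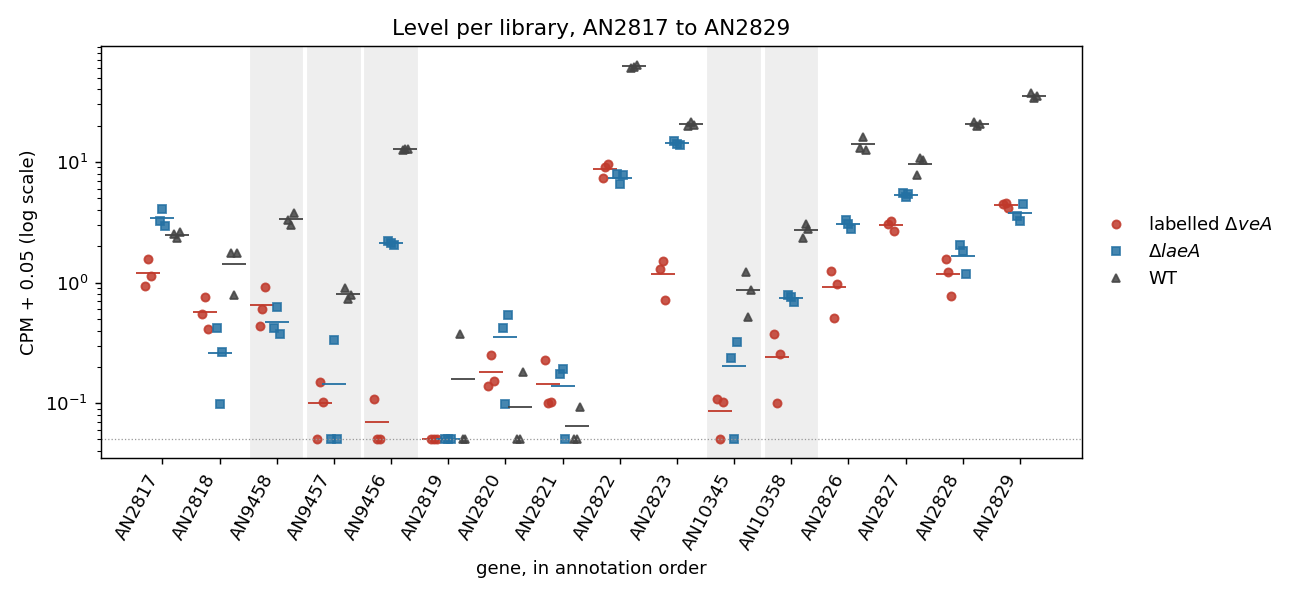
Level of each gene from AN2817 to AN2829 in every library, as CPM plus 0.05 on a log axis, with genes in annotation order, a short line at each group's mean, a dotted line at 0 CPM and grey bands for genes whose number lies outside the range. WT triangles lie above both mutants at most genes, while at AN2817 and AN2823 the Δ*laeA* squares stand near WT, at 13.7 to 15 CPM for AN2823 against 19.8 to 21.3 CPM in WT.

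At AN2823 and AN2826 the mutants stood apart. AN2823 had 1.24, 1.46 and 0.668 CPM in the Δ*veA*-labelled libraries, 15, 13.9 and 13.7 CPM in Δ*laeA*, and 19.8, 21.3 and 20.0 CPM in WT. Its log2 fold change of -0.53 ± 0.11 in Δ*laeA* (SE, adjusted p = 7.17e-05, edgeR) did not reach 2-fold, and the log2 difference of the Δ*veA*-labelled libraries from Δ*laeA* was -3.63 ± 0.16 (SE). AN2826 had 1.21, 0.454 and 0.925 CPM in the Δ*veA*-labelled libraries, 3.22, 3.00 and 2.74 CPM in Δ*laeA*, and 13.1, 16.1 and 12.6 CPM in WT. It fell in Δ*laeA* by 2.24 ± 0.17 on the log2 scale (SE, adjusted p = 1.46e-13, edgeR), and lay lower still in the Δ*veA*-labelled libraries. AN2827, its neighbour, was the mildest of the far end, with 3.03, 3.18 and 2.62 CPM in the Δ*veA*-labelled libraries, 5.46, 5.09 and 5.33 CPM in Δ*laeA*, and 7.69, 10.8 and 10.2 CPM in WT. In Δ*laeA* its log2 fold change of -0.88 ± 0.15 (SE, adjusted p = 3.52e-06, edgeR) stayed under 2-fold.

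The low end of the second stretch held genes with few reads. AN2817 had 0.884, 1.51 and 1.08 CPM in the Δ*veA*-labelled libraries, 3.16, 4.0 and 2.91 CPM in Δ*laeA*, and 2.48, 2.27 and 2.56 CPM in WT. Its Δ*laeA* libraries all lay above WT, the only member of the second stretch in which they did, at 0.48 ± 0.24 on the log2 scale (SE, adjusted p = 0.0672, edgeR). AN2818 had 0.501, 0.707 and 0.360 CPM in the Δ*veA*-labelled libraries, 0.372, 0.0476 and 0.215 CPM in Δ*laeA*, and 1.70, 0.733 and 1.69 CPM in WT. It fell in Δ*laeA* by 2.66 ± 0.55 on the log2 scale (SE, adjusted p = 7.44e-05, edgeR), while the mutants overlapped. This value was -3.29 without Δ*laeA* replicate 1 and -2.14 without Δ*laeA* replicate 2. In the Δ*veA*-labelled libraries the log2 fold changes were -1.10 ± 0.27 for AN2817 and -1.30 ± 0.43 for AN2818 (SE). AN2817 was no longer a DEG there without Δ*veA*-labelled replicate 1 (-0.91), and AN2818 lost its call without WT replicate 3 (-1.07). AN2819, AN2820 and AN2821 were not tested, with at most 9 reads in any library. AN2821 had 6, 1 and 1 reads in the Δ*veA*-labelled libraries, 2, 3 and 0 in Δ*laeA* and 0, 0 and 1 in WT. AN2820 had 3, 4 and 2 reads in the Δ*veA*-labelled libraries, 6, 1 and 9 in Δ*laeA* and 0, 0 and 3 in WT. AN2819 had 0 reads in all 6 mutant libraries and 5, 0 and 0 reads in WT. These 3 genes were below the filter of the fit. With no filter, AN2820 was called higher in Δ*laeA* than in WT, at 2.76 on the log2 scale (adjusted p = 0.0199, edgeR), on the reads given here, and AN2819 and AN2821 were not DEGs.

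By the DEG thresholds, 3 of the 8 tested members were lower in the Δ*veA*-labelled libraries than in Δ*laeA* (AN2817, AN2823 and AN2826) and 0 were higher, beside 11.6% and 6.74% of all genes tested. AN2818, at a log2 difference of 1.36 ± 0.64 (SE), was called higher without Δ*veA*-labelled replicate 3 (1.53) and without Δ*laeA* replicate 1 (2.00). As in the first stretch, this is a description without a test.

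The annotation places 5 genes with numbers outside the range among the members of the second stretch: AN9458, AN9457 and AN9456 after AN2818, and AN10345 and AN10358 before AN2826. AN9456 had 2, 0 and 0 reads in the Δ*veA*-labelled libraries, 35, 44 and 37 in Δ*laeA*, and 193, 524 and 293 in WT. It was the most reduced of the 5 in the Δ*veA*-labelled libraries, and in Δ*laeA* its log2 fold change was -2.61 ± 0.17 (SE, adjusted p = 2.89e-15, edgeR). AN9458 had 0.383, 0.555 and 0.873 CPM in the Δ*veA*-labelled libraries, 0.372, 0.571 and 0.323 CPM in Δ*laeA*, and 3.26, 2.93 and 3.73 CPM in WT. All 5 were DEGs that fell in Δ*laeA*, against 14.5% of all genes tested, with log2 fold changes between -2.92 and -1.95. All 5 were also DEGs with lower levels in the Δ*veA*-labelled libraries, against 19.9%. Between AN2817 and AN2829, 13 of 13 tested rows therefore carried the same call in the Δ*veA*-labelled libraries, but 8 of the 13 are members of a stretch chosen on it. The run was unbroken over 8 rows from AN2822 to AN2829 when untested rows are counted as breaks.

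At the low edge AN2815, the next row below AN2817, had 234, 228 and 224 CPM in the Δ*veA*-labelled libraries, 306, 288 and 295 CPM in Δ*laeA*, and 371, 327 and 338 CPM in WT. Its log2 fold changes of -0.59 in the Δ*veA*-labelled libraries and -0.22 in Δ*laeA* stayed under 2-fold, although the Δ*veA*-labelled libraries lay below all WT libraries. This edge was not the end of lowered genes. On that side 4 of the 9 tested rows were again DEGs with lower levels in the Δ*veA*-labelled libraries, against 19.9% of all genes tested. Another 3 were DEGs with higher levels, against 13.6%. At the high edge AN2830 was not tested, with 38, 7 and 11 reads in the Δ*veA*-labelled libraries, 6, 4 and 2 in Δ*laeA* and 2, 12 and 9 in WT. The next tested gene, AN2832, had log2 fold changes of -0.40 in the Δ*veA*-labelled libraries and -0.37 in Δ*laeA*.

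The third stretch, AN8132 to AN8137, ran the other way and was high in the Δ*veA*-labelled libraries. Its 6 members summed to 87.4 ± 8.30 CPM in the Δ*veA*-labelled libraries, 20.0 ± 2.04 CPM in Δ*laeA* and 4.66 ± 0.369 CPM in WT (SD, n = 3 each). The median log2 fold change was 5.74 in the Δ*veA*-labelled libraries and 0.98 in Δ*laeA*. All 6 members were tested, and they fell into a pair that was high in both mutants and 4 genes that were high in the Δ*veA*-labelled libraries and at 1.13 CPM or less elsewhere.

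AN8132 had 9.90, 8.38 and 9.61 CPM in the Δ*veA*-labelled libraries, 15.5, 13.2 and 16.4 CPM in Δ*laeA*, and 2.87, 2.56 and 2.69 CPM in WT. AN8133 had 2.33, 2.88 and 2.77 CPM in the Δ*veA*-labelled libraries, 3.16, 2.95 and 3.39 CPM in Δ*laeA*, and 0.652, 0.781 and 0.911 CPM in WT. Both genes had all 6 mutant libraries above WT, with the Δ*laeA* libraries the highest. In Δ*laeA*, AN8132 rose by 2.48 ± 0.14 (adjusted p = 9.35e-17) and AN8133 by 1.99 ± 0.27 (adjusted p = 7.91e-08) on the log2 scale (SE, edgeR).

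**Figure D3:**
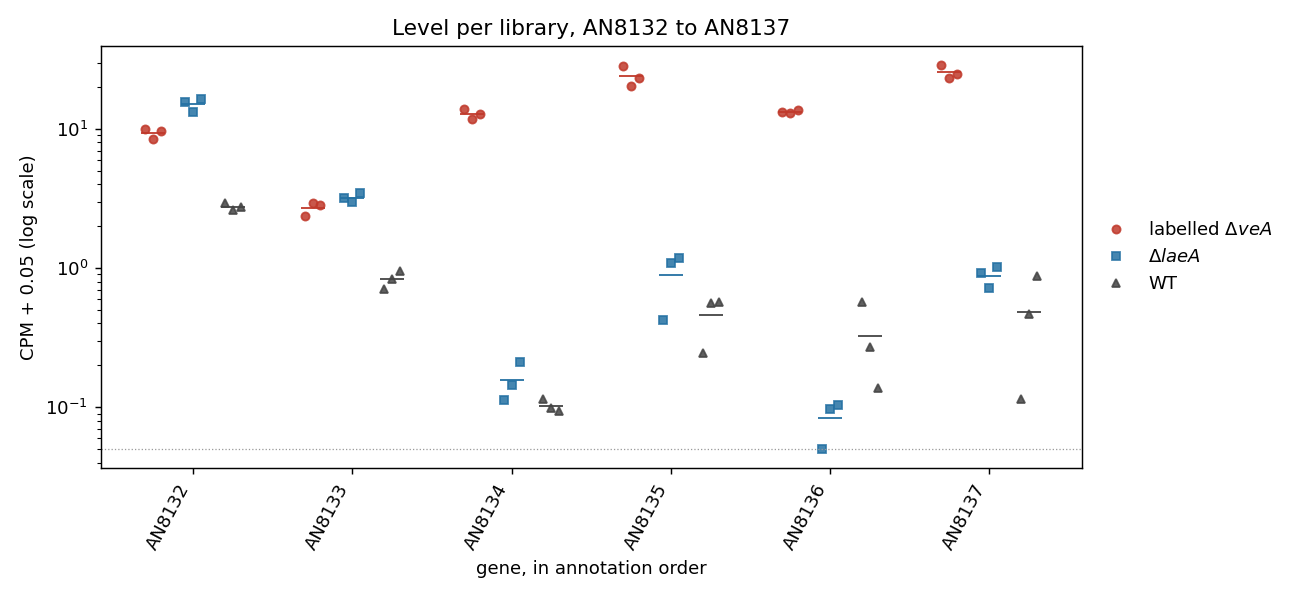
Level of each gene from AN8132 to AN8137 in every library, as CPM plus 0.05 on a log axis, with genes in annotation order, a short line at each group's mean and a dotted line at 0 CPM. At AN8132 and AN8133 both mutants lie above WT, while from AN8134 to AN8137 the circles of the Δ*veA*-labelled libraries stand at 11.7 to 28.7 CPM and the squares of Δ*laeA* and triangles of WT at 1.13 CPM or less.

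AN8134 and AN8136 were almost unread in Δ*laeA* and WT, and AN8135 and AN8137 had at most 22 reads in any of those libraries. AN8134 had 469, 232 and 248 reads in the Δ*veA*-labelled libraries, 1, 2 and 3 in Δ*laeA*, and 1, 2 and 1 in WT. The pooled ratio of the Δ*veA*-labelled libraries over WT was 257, with an exact 95% counting interval of 100 to 945. The few reads in WT set the width of this interval, which covers counting error only. AN8135 had 28.2, 20.4 and 23.2 CPM in the Δ*veA*-labelled libraries, 0.372, 1.05 and 1.13 CPM in Δ*laeA*, and 0.196, 0.513 and 0.521 CPM in WT. AN8136 had 446, 258 and 264 reads in the Δ*veA*-labelled libraries, 0, 1 and 1 in Δ*laeA*, and 8, 9 and 2 in WT. AN8137 had 28.7, 23.1 and 24.8 CPM in the Δ*veA*-labelled libraries, 0.868, 0.666 and 0.969 CPM in Δ*laeA*, and 0.0652, 0.415 and 0.824 CPM in WT. In all 4 genes every library labelled Δ*veA* lay above every other library.

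In Δ*laeA* against WT, 3 of these 4 genes were not DEGs. AN8136 was a DEG that fell, with a log2 fold change of -2.58 ± 0.87 (SE, adjusted p = 0.00896, edgeR), and the pooled ratio was 0.150 with an exact 95% counting interval of 0.0169 to 0.621. This call rests on 2 reads in all 3 Δ*laeA* libraries together. AN8134 and AN8136 passed the filter only through the Δ*veA*-labelled libraries, and neither was tested when the fit held only Δ*laeA* and WT. AN8134, at 1.02 ± 0.86 (adjusted p = 0.289), AN8135, at 0.95 ± 0.39 (adjusted p = 0.0288), and AN8137, at 0.82 ± 0.39 (adjusted p = 0.0596), were not DEGs (log2 fold change ± SE, edgeR). AN8137 became a DEG without WT replicate 3 (1.37 on the log2 scale). AN8135 did so without WT replicate 2 (1.16), WT replicate 3 (1.04) or Δ*laeA* replicate 1 (1.26).

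Between the mutants, all 4 genes from AN8134 to AN8137 were higher in the Δ*veA*-labelled libraries by the DEG thresholds, as 6.74% of all genes tested were, with log2 differences from 4.77 for AN8135 to 8.33 for AN8136. AN8132 and AN8133 stood at -0.68 ± 0.12 and -0.26 ± 0.23 (log2 difference ± SE), and were not called. This is a description without a test, since the Δ*veA*-labelled libraries took part in the choice.

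At both edges of the third stretch the next genes had lower, not higher, values in the Δ*veA*-labelled libraries. AN8131 was not tested, with 0, 0 and 0 reads in the Δ*veA*-labelled libraries, 1, 1 and 2 in Δ*laeA* and 4, 11 and 11 in WT. Below it AN8130 had 33.0, 29.2 and 30.7 CPM in the Δ*veA*-labelled libraries, 59.1, 54.6 and 56.4 CPM in Δ*laeA*, and 35.8, 33.6 and 37.2 CPM in WT, so that its Δ*veA*-labelled libraries lay under WT by a log2 fold change of -0.19 ± 0.07 (SE). Further out on the low side, AN8122 was a DEG with higher levels in both mutants, at 1.81 in the Δ*veA*-labelled libraries and 2.45 in Δ*laeA*. It was the only 1 of the 8 tested rows there called higher in the Δ*veA*-labelled libraries, against 13.6% of all genes tested. In Δ*laeA* 2 of the 8 rose, against 9.9%, the other being AN8123 at 1.48, and 0 fell. On the high side the direction turned at the next gene. AN8138 had 0.471, 0.151 and 0.514 CPM in the Δ*veA*-labelled libraries, 0.186, 0.666 and 0.538 CPM in Δ*laeA*, and 1.30, 1.76 and 1.95 CPM in WT. It fell in Δ*laeA* by 1.81 ± 0.41 on the log2 scale (SE, adjusted p = 2.24e-04, edgeR). All 5 tested rows among the 10 beyond AN8137 were DEGs with lower levels in the Δ*veA*-labelled libraries, against 19.9% of all genes tested. Of these 5, 4 were DEGs that fell in Δ*laeA*, against 14.5%. AN8140 had 0, 1 and 0 reads in the Δ*veA*-labelled libraries, 0, 0 and 2 in Δ*laeA* and 16, 23 and 18 in WT. AN8145, another of the 5, had 393, 413 and 404 CPM in the Δ*veA*-labelled libraries, 715, 706 and 695 CPM in Δ*laeA*, and 1318, 1415 and 1406 CPM in WT.

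**Figure D4:**
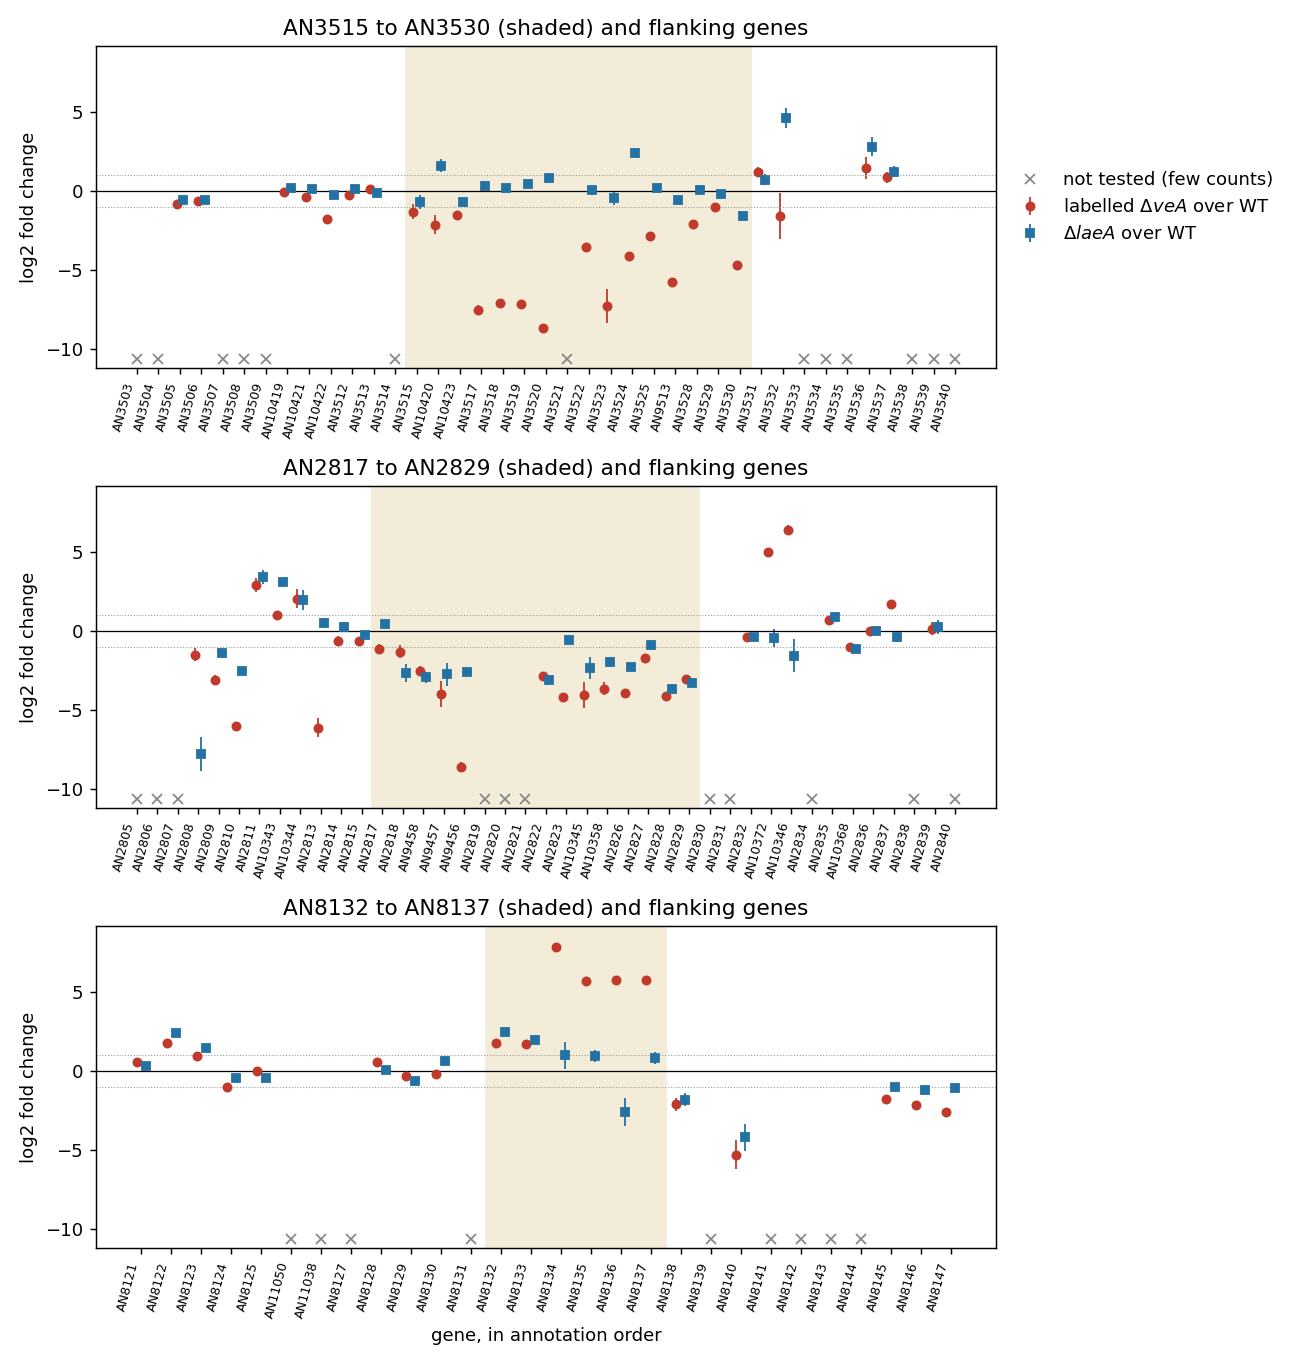
Log2 fold change over WT of each gene of the 3 stretches (shaded) and of the flanking genes, in annotation order, with bars for the SE, crosses for genes not tested and dotted lines at 2-fold. The Δ*veA*-labelled libraries lie below -1 at every tested gene within the first 2 stretches and above 1 in the third, and Δ*laeA* follows them over most of the second stretch, with a median of -2.45 there and 0.14 in the first.

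In Δ*laeA* 1 member of the first stretch was a DEG that fell and 1 a DEG that rose, and in the second all 5 DEGs fell. In the third 2 rose and AN8136 fell, but AN8136 passed the filter only through the Δ*veA*-labelled libraries. Over all genes tested, 14.5% fell and 9.9% rose. The 12 tested members of the first stretch ranged from -1.57 to 2.44 on the log2 scale, the 8 of the second from -3.66 to 0.48 and the 6 of the third from -2.58 to 2.48. The middle 50% of all genes tested lay between -0.51 and 0.45. Neighbouring genes of compact fungal genomes can overlap, and the default setting of featureCounts, which the study's methods give for programs without other notes, takes no account of strand, so reads of overlapping or antisense neighbours cannot be told apart.

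**Figure D5:**
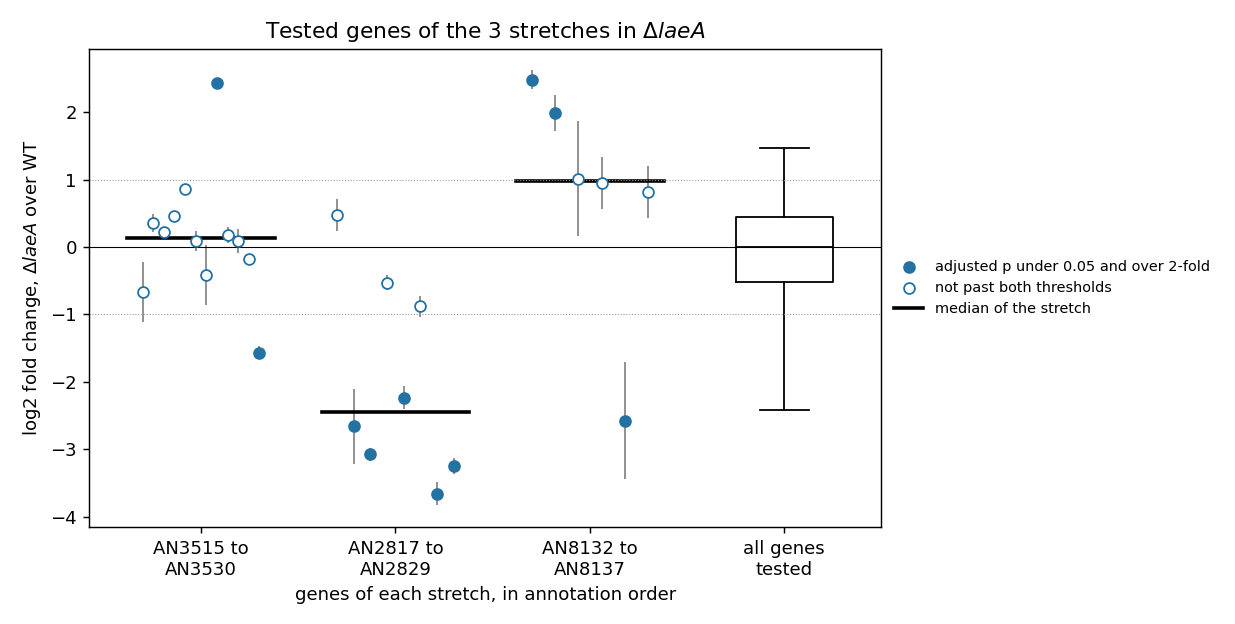
Log2 fold change of Δ*laeA* over WT for each tested gene of the 3 stretches (points, with bars for the SE, filled where the gene was a DEG, thick line at the median) and for all 9481 genes tested (box at the quartiles with a line at the median, whiskers at the 5th and 95th percentiles). Filled points lie low in the second stretch (5 of 8) and on both sides in the first (1 lower and 1 higher) and the third (1 lower and 2 higher). The lower filled point of the third is AN8136, which passed the filter only through the Δ*veA*-labelled libraries. Over all genes tested, 14.5% were DEGs with lower levels and 9.9% with higher levels.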

How the data were processed

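RNA-seq of Vege was made from 3 strains with 3 libraries each. The authors made strand-specific libraries, mapped the reads with HISAT2 2.1 and counted them per gene with featureCounts 1.5.0. The deposited values are read counts per gene, whole numbers without normalization, in 10988 rows. The authors' own test used DESeq2 1.6.3, and its output was not used here. The methods state default settings unless noted, which for featureCounts means counting without regard to strand.

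Samples were grouped by the genotype in the labels. Because *veA* was read highest in the Δ*veA*-labelled libraries, these are called by their label throughout. Members and gene lists were chosen with earlier results of these data known. The genes named are all members, the genes placed between them, the 10 numbered rows on each side of a stretch with genes placed among them, *veA*, *laeA*, *argB* and the marker lists.

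Counts were filtered with filterByExpr and scaled by TMM in edgeR 4.0.16 (R 4.3.3). Of 10988 rows, 1507 were put aside and 9481 tested in 1 model of all 9 libraries with edgeR's quasi-likelihood test and Benjamini-Hochberg adjustment over all 9481. The DEG thresholds were 0.05 for the adjusted p and 2-fold for the change. Standard errors came from the F statistic, and can be too small where a group has hardly a read. Counting intervals are exact at 95%, the floor was 3 counts per library, and both cover counting error only. On simulated data for Δ*laeA* against WT with 9350 genes, 96 of 97 genes changed 4-fold, 100 of 100 changed 16-fold and 0 of 9153 unchanged genes were called. Gene order and symbols were read from RefSeq's table for ASM1142v1, an assembly that differs from the record the study cites, so no coordinate is given. All 30 members matched a locus tag there. Replicate numbers were not used as pairs. Alternatives were DESeq2 1.42.0, other size factors, library totals, only the groups compared, no fold-change minimum, a minimum of 10 counts in each library, no filter, a replicate block and each library left out. Plots used matplotlib 3.10.9 in Python 3.11.15.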

Additional observations from a re-analysis of the deposited data

How the results depend on the processing

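With at least 10 counts in every library only 14 members could be fitted, and 14 were called in the Δ*veA*-labelled libraries against WT (6 lower in the first stretch and 2 higher in the third), 7 between the mutants (5 lower in the first stretch and 0 higher in the third), and in Δ*laeA* 3 fell in the second stretch and 0 fell in the third. The member that fell in the third stretch, AN8136, was also put aside when only the groups compared were fitted, which left 0. Without a fold-change minimum, 18 members passed in Δ*laeA* (in the first stretch 2 lower and 5 higher), and 1 member of the third stretch, AN8132, was lower in the Δ*veA*-labelled libraries than in Δ*laeA*. With no filter, and with DESeq2, AN2820 counted as 1 member of the second stretch higher in Δ*laeA*, at an adjusted p of 0.0199 in edgeR and 0.0475 in DESeq2.

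With library totals alone, 4 members of the first stretch turned direction in Δ*laeA*, to -0.10 for AN3518, -0.24 for AN3522, -0.14 for AN3525 and -0.23 for AN3528 on the log2 scale, and 1 member of the second stretch, AN2818, was higher in the Δ*veA*-labelled libraries than in Δ*laeA*. AN2827 then passed 2-fold in Δ*laeA*, at -1.21. With 1 library left out AN3522 ranged from -0.049 (without WT replicate 1) to 0.20. With a prior count of 2, chosen after seeing the data, AN8136 stood at -1.42 in Δ*laeA*.

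With each library left out in turn, the members called numbered 23 to 26 in the Δ*veA*-labelled libraries against WT, 10 to 12 in Δ*laeA* and 17 to 18 between the mutants. Members of the third stretch higher in Δ*laeA* numbered 2 to 4, with 4 without WT replicate 3, and members of the second stretch higher in the Δ*veA*-labelled libraries than in Δ*laeA* numbered 0 to 1. Apart from the results named here and the changes given beside AN3515, AN3529, AN2817, AN2818, AN8135 and AN8137, the members kept their direction and their side of the threshold under the alternatives in which they were tested.

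The labels do not say whether libraries with the same replicate number were handled together. Their deviations from the group means correlated at -0.07 to 0.21, the highest between WT and Δ*veA*-labelled replicate 1, which does not settle it. With the replicate block 26, 10 and 17 members were called in the 3 comparisons, and over all genes 3171 in the Δ*veA*-labelled libraries against WT and 2306 in Δ*laeA*. Depth limits AN8134, AN8136, AN3517, AN3523 and the 4 untested members, each with few reads in at least 1 group. It also limits AN3515, AN3518, AN3519, AN3520, AN2818, AN2826, AN8135 and AN8137, each with under 10 reads in at least 1 library. Only 14 members had at least 10 reads in every library.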

Other observations

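Several genes in the rows flanking the 3 stretches had levels far from those of WT. They were picked from those rows for these levels, so their differences are given as a description without a test. AN10372 and AN10346, which stand next to each other beyond the high edge of AN2817 to AN2829, were read mainly in the Δ*veA*-labelled libraries. AN10372 had 10.8, 9.59 and 10.3 CPM in the Δ*veA*-labelled libraries, 0.434, 0.0476 and 0.269 CPM in Δ*laeA*, and 0.0652, 0.366 and 0.390 CPM in WT. AN10346 had 382, 169 and 201 reads in the Δ*veA*-labelled libraries, 1, 1 and 0 in Δ*laeA* and 3, 1 and 5 in WT. For both genes every library labelled Δ*veA* lay above every other library. AN10372 had 7, 1 and 5 reads in Δ*laeA* and 1, 15 and 9 in WT. The log2 fold changes in Δ*laeA* were -0.41 ± 0.57 for AN10372 and -1.54 ± 1.07 for AN10346 (SE). Both genes had enough reads for the filter only in the Δ*veA*-labelled libraries. With so few reads in Δ*laeA* and WT, these values do not show equal levels in the 2 groups.

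AN3532, beyond AN3531, was read mainly in Δ*laeA*. It had 21, 37 and 20 reads in Δ*laeA*, against 1, 1 and 2 reads in WT, and 1, 0 and 0 in the Δ*veA*-labelled libraries. Its log2 fold change in Δ*laeA* was 4.63 ± 0.63 (SE), and it had enough reads for the filter only in Δ*laeA*. On the low side of AN2817, AN2810 had 2.36, 2.17 and 2.21 CPM in the Δ*veA*-labelled libraries, 25.4, 25.9 and 26.5 CPM in Δ*laeA*, and 148, 150 and 148 CPM in WT. AN2810 was lower in Δ*laeA* than in WT by 2.52 ± 0.06 on the log2 scale (SE). Its neighbour AN2811 was higher in Δ*laeA* than in WT by 3.44 ± 0.42 on the log2 scale (SE), with 2.36, 3.43 and 2.15 CPM in Δ*laeA*, against 0.456, 0.244 and 0.0868 CPM in WT. AN2811 had 1.33, 2.83 and 1.54 CPM in the Δ*veA*-labelled libraries, which overlapped Δ*laeA*.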
